A study of Mus musculus with 15 samples.

Results

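The 29 genes of cholesterol and fatty acid synthesis were followed in cultured cells, allograft tumors and lung of the mouse. They are 29 of the 55359 genes in the deposited matrix, picked by gene symbol for their place in both pathways. They comprise 7 genes of the mevalonate steps, 11 of the squalene and sterol steps, 4 regulators and sterol carriers, and 7 of the fatty acid steps. Every symbol was found once. Mvd, which decarboxylates mevalonate diphosphate, is listed at 0 in all 15 samples and was not tested, so counts below are of 28 genes. In the annotation used here 20.5% of its exon length is shared with a noncoding gene on the opposite strand. Cyp51 and Fdft1 share 28.3% and 24.8% with genes on the opposite strand and were measured in every group. Why Mvd is at 0 was not tested.

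The samples form 5 groups of 3. 46LCNEC_cell is an adherent line from a large cell neuroendocrine carcinoma (LCNEC) that arose in a QKO mouse after adenovirus Ad-CMVcre, which carries Cre under a general promoter, was given into the trachea. 57SCLC_cell grows as floating aggregates and came from a small cell carcinoma (SCLC) after Ad-K5cre, whose keratin promoter is active in basal cells of the airway. QKO mice carry floxed tumor suppressor alleles, Rb1 and Trp53 among them, and, as the study describes them, a null Rbl1 gene, which cells, tumors and the lung of littermates would share. 46LCNEC_allo and 57SCLC_allo are tumors of the same lines, injected in Matrigel under the skin of syngeneic QKO mice with an intact immune system, and Lung is lung from littermates of the mice used for allografts. Each line is a single line from 1 tumor, and the 3 cell samples of a line are separate dishes (46LCNEC) or flasks (57SCLC), both named A, B and C. The p-values therefore measure the spread between cultures, tumors and animals of these 2 lines. Culture medium was RPMI with fetal calf serum, insulin, transferrin, selenium, epidermal growth factor and hydrocortisone.

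Cholesterol is built from acetyl-CoA through mevalonate, farnesyl diphosphate, squalene and lanosterol, and fatty acids are built from the same acetyl-CoA through malonyl-CoA and palmitate. Most of the genes are targets of the sterol regulatory element binding proteins (SREBPs), encoded by Srebf1 and Srebf2, which are held in the endoplasmic reticulum by the Insig proteins when sterols are plentiful and are released when sterols fall. Dividing cells need both products for membranes, and alveolar type II cells of the lung make fatty acids for surfactant.

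SREBPs act beside NF-Y, which binds CCAAT, and Sp1, which binds GGGCGG. RefSeq promoters of GRCm38.p6, each 250 bases before to 50 bases after a gene start, matched 23 of the 29 genes. CCAAT on either strand was present in 20 of the 23 (87.0%), all but Acat2, Acaca and Elovl6, and in 41.1% of the 27025 symbols of the table. GGGCGG was present in 19 of the 23 (82.6%) and in 38.2% of all symbols, but in 63.2% of the 12540 other symbols tested in the culture comparisons, where CCAAT was present in 42.1%. The letters TCACNCCAC, a core form of the sterol regulatory element, were found in 1 of the 23, Hmgcs1, and in 1.44% of all symbols. The 250 bases before the start are given for an early step of the pathway whose gene carries that element, a kinase of the mevalonate steps, a sterol step and the fatty acid synthase. All 4 are among the 6 genes with 3 or more CCAAT matches in the window, each strand counted. In Fasn the matches 62 and 59 bases before the start overlap, as CCAATTGG reads CCAAT on either strand. Of the other 17, taking the promoter with most matches, 4 genes had 2, 10 had 1 and 3 had 0. Capitals mark the CCAAT letters, which read ATTGG where they lie on the opposite strand, and in Hmgcs1 the match to the sterol regulatory element. The positions are chr13:119690101-119690350 on the plus strand for Hmgcs1, chr5:114444019-114444268 on the plus strand for Mvk, chr8:64733579-64733828 on the minus strand for Msmo1 and chr11:120824548-120824797 on the minus strand for Fasn, all on GRCm38.p6 and all written 5′ to 3′ on the strand of the gene.
Hmgcs1: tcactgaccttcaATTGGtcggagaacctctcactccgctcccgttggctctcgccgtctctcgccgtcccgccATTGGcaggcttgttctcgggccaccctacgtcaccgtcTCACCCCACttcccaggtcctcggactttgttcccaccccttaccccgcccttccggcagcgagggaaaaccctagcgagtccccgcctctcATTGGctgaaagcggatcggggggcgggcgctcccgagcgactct
Mvk: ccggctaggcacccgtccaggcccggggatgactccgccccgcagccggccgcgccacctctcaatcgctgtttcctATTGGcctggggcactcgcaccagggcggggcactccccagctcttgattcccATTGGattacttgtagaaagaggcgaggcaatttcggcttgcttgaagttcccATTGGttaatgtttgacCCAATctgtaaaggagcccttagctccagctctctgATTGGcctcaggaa
Msmo1: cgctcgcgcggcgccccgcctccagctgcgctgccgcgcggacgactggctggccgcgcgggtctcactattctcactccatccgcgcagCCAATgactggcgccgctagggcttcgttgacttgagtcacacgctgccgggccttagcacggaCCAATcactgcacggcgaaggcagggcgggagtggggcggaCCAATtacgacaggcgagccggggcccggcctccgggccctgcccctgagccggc
Fasn: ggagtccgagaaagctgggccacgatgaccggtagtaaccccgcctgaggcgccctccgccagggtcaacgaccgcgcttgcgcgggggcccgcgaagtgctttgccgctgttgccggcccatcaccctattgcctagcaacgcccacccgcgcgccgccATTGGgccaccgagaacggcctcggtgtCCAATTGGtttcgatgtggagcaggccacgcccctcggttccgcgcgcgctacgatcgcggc

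Expression is given as normalized counts, the deposited unit, in which reads per gene were divided by a size factor for each sample. Reads counted ranged from 9480244 in tumor 275 of 57SCLC_allo to 44876572 in flask C of 57SCLC_cell. Fold changes and tests are from limma on log2(normalized count + 1) across all genes, with Benjamini-Hochberg adjustment, and a gene was called at an adjusted p of at most 0.01 and at least a 2-fold change. The summed markers of neuroendocrine cells (Chga, Chgb, Syp, Elavl3, Elavl4 and Scg3) were 27579 to 34372 in 57SCLC_cell and 29513 to 32003 in 57SCLC_allo, but 32.3 to 45.3 in 46LCNEC_cell and 27.4 to 66.4 in 46LCNEC_allo, below the 187 to 222 of Lung. Transcripts of those markers were thus near absent in the samples labelled LCNEC. The study reports staining of neuroendocrine proteins, with NCAM in LCNEC cells and chromogranin A in LCNEC allografts. Protein was not measured here. Reads over the floxed genes Rb1 and Trp53 were present in every group (66.6 to 777 and 923 to 1548 normalized counts), and gene-level counts include exons outside the deleted segments, so they do not check the deletions. Rbl1, described as null, had 750.4 to 872 normalized counts in Lung and 1172 to 3166 in the cells and tumors. Its counts over the whole gene do not check that label either. By PCR of genomic DNA the study reports deletion at these loci in the cell lines, and mutant alleles kept in the tumors. Which allele the Rbl1 reads come from was not tested.

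In the 46LCNEC line, nearly the whole set fell on growth under the skin. Of 28 genes, 27 were called lower in 46LCNEC_allo than in 46LCNEC_cell and 0 higher, where 8.45% of the 16375 genes tested were called lower and 14.4% higher. The median log2 fold change was -1.60, and that of all genes was -0.000694. All 28 had every tumor below every dish (31.5% of all genes), all 28 were below 0 (50% of all genes), and all 28 reached an adjusted p of at most 0.01 at any size (16.1% of all genes were lower in this way). Ebp, an isomerase of the sterol steps, was the gene outside the 2-fold limit. In bulk samples, fewer cells of a type and less RNA per cell cannot be told apart. Markers of other cell types moved with the fall. The summed macrophage markers rose from 331 to 385 in the dishes to 28087 to 58891 in the tumors, endothelial markers from 321 to 385 to 5481 to 9416, and fibroblast markers from 76105 to 86538 to 420733 to 832998, and each of the 17 genes in those lists was called higher. The fibroblast markers were high in the dishes already, above the 21720.4 to 27260.1 of Lung, so in this line they are not markers of host cells alone. The part of other cells in the fall was not tested.

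**Figure D1:**
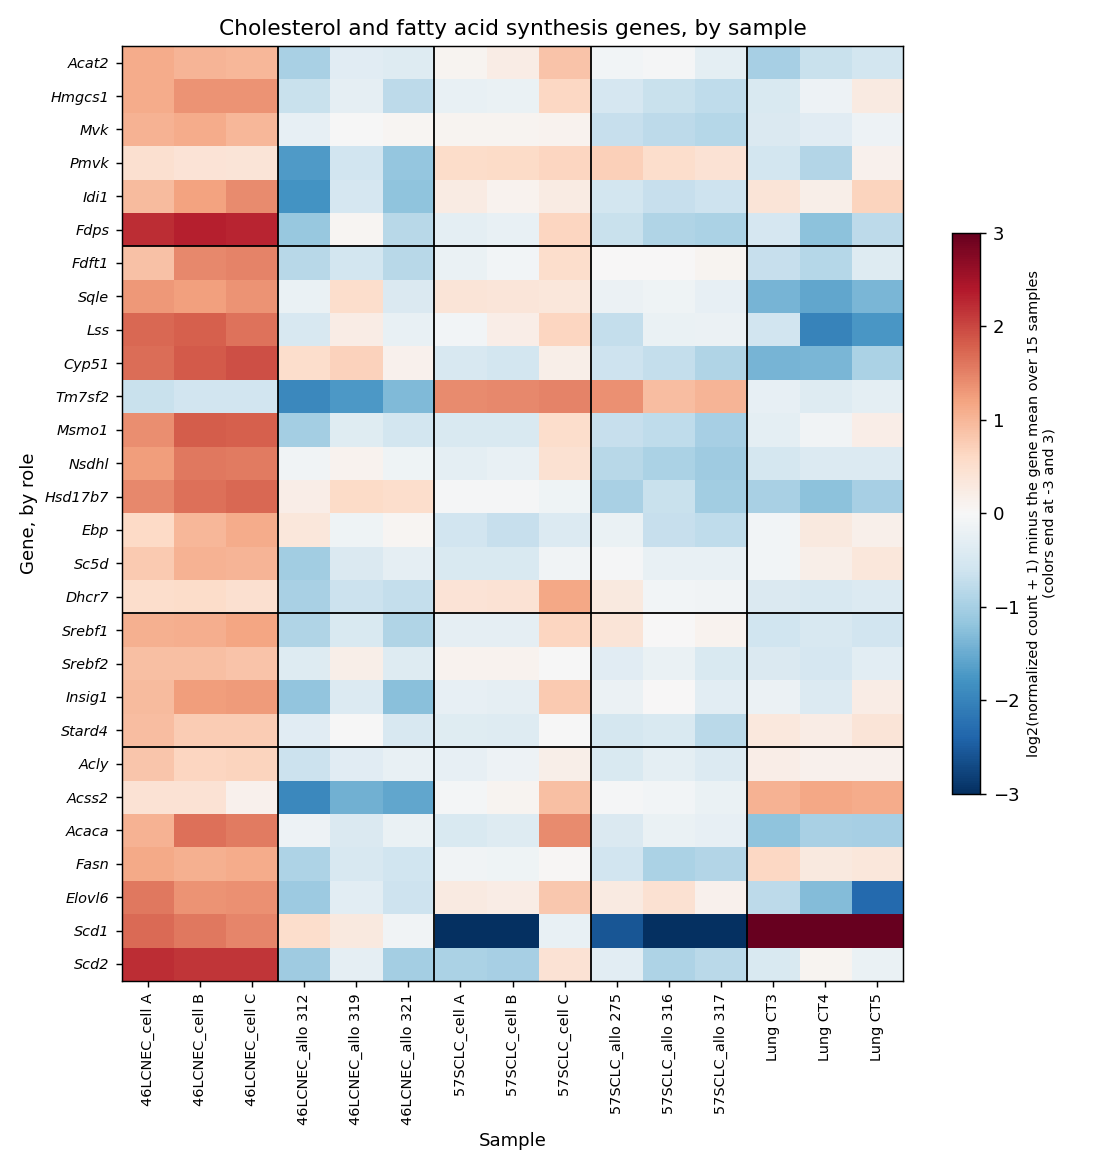
Heat map of 28 genes (rows, ordered by pathway role) in 15 samples (columns, by group). Color is log2(normalized count + 1) minus the mean of the gene over the 15 samples, and the scale ends at 3 in either direction. The 46LCNEC_cell columns are the highest group for 23 of the 28 genes, and flask C of 57SCLC_cell stands above flasks A and B in most rows.

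The mevalonate steps fell in the 46LCNEC tumors, 6 of 6 tested, with a median log2 fold change of -1.73. Fdps, which makes farnesyl diphosphate at the branch point to sterols and protein prenylation, fell most among them. The gene lies at chr3:89000888-89019213 on the minus strand of GRCm39. It measured 642, 694 and 671 normalized counts in dishes A, B and C and 62.3, 144 and 77.4 in tumors 312, 319 and 321. The highest tumor was below the lowest dish by a wide gap, and the group mean was 7.07-fold lower (log2 fold change -2.90, SE 0.30, adjusted p = 0.000282 by limma). Idi1, which isomerizes the isoprenoid building block, measured 218, 264 and 304 in the dishes and 31.8, 78.9 and 48.7 in the tumors (-2.36, SE 0.35, adjusted p = 0.00128 by limma). The annotation lists 5 pseudogenes named after Idi1, which could share its reads. Only names of that form were searched, so pseudogenes named otherwise would be missed, for Idi1, Fdps and the other members alike. Hmgcs1, whose product condenses acetyl-CoA with acetoacetyl-CoA, measured 7076, 8322 and 8321 in the dishes and 2046, 2719.7 and 1896 in the tumors (-1.85, SE 0.15, adjusted p = 0.000112 by limma). Its promoter, shown above, carries the TCACNCCAC match. The remaining changes were -1.62 for Acat2, -1.58 for Pmvk and -1.11 for Mvk, that is the thiolase of the entry step and the 2 mevalonate kinases, with no overlap between dishes and tumors. Acat2 ranged from 2541 to 2760 in the dishes and from 648 to 999 in the tumors, and Mvk from 1565 to 1701 and from 670.2 to 822.

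Of the squalene and sterol steps, 10 of 11 fell, with a median of -1.36. Msmo1, a methylsterol oxidase, measured 3930.3, 5204 and 5140.2 in the dishes and 729.8, 1155 and 1012 in the tumors (-2.31, SE 0.19, adjusted p = 0.000114 by limma). Fdft1, squalene synthase, went from 2325, 3440.1 and 3578 to 707, 861 and 706 (-2.02, SE 0.18, adjusted p = 0.000165). Tumor 319 was the highest tumor for both genes, and every tumor stood below every dish. Lss, which closes squalene epoxide to lanosterol, fell from 516, 543 and 479.7 to 111, 181 and 133 (-1.88, SE 0.21, adjusted p = 0.000369 by limma). Cyp51, the lanosterol demethylase, fell less, from 9744, 10942 and 11639.6 to 4434, 4936 and 3367 (-1.36, SE 0.16, adjusted p = 0.000471). The other changes were -1.53 for Sc5d, -1.51 for Nsdhl, -1.32 for Sqle, -1.29 for Dhcr7, -1.16 for Hsd17b7 and -1.06 for Tm7sf2, all called, and -0.82 for Ebp, which was not called. Sqle, squalene epoxidase, ranged from 8993 to 9676 normalized counts in the dishes and from 2842 to 5515 in the tumors, Sc5d, a sterol desaturase, from 3487 to 4169 and from 981 to 1666, and Dhcr7, which reduces the last precursor of cholesterol, from 1725 to 1809 and from 636 to 789. Nsdhl, a sterol dehydrogenase, Hsd17b7 and Tm7sf2, both sterol reductases, showed the same separation. Of the exon length of Cyp51, 28.3% is shared with genes on the opposite strand, and of Fdft1 24.8%. Their reads thus depend on a strand setting that is not given in the sources used here.

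All 4 regulators and carriers fell. Srebf1 (chr11:60089913-60113407, minus strand, GRCm39), which drives fatty acid genes foremost, measured 10946, 11101 and 11690.4 normalized counts in the dishes and 2763, 3779 and 2763 in the tumors (-1.87, SE 0.14, adjusted p = 7.14e-05 by limma). Insig1, an SREBP target that closes the feedback loop, measured 5565, 6831 and 6949.9 and 1262, 2163 and 1204 (-2.11, SE 0.23, adjusted p = 0.00035). In both genes tumor 319 was the highest of the 3 tumors and still below every dish. Srebf2, which drives sterol genes foremost, changed by -1.09 and Stard4, a sterol carrier between membranes, by -1.09. These were among the smaller changes of the set.

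All 7 genes of the fatty acid steps fell, with a median of -1.76. Scd2, a stearoyl-CoA desaturase that makes monounsaturated fatty acids, had the largest change of the set. The gene lies at chr19:44281613-44295303 on the plus strand of GRCm39, beside Scd1 at chr19:44382894-44399154 on the minus strand. It measured 160526, 152723 and 153696 normalized counts in the dishes and 16613, 28571 and 17015 in the tumors, 7.51-fold lower (-2.96, SE 0.24, adjusted p = 8.96e-05 by limma). Per kilobase of exon, Scd2 was also the most abundant gene of the set in 46LCNEC_cell, at 20679 normalized counts per kilobase against 1965 for Srebf2, the next. Fasn, which builds palmitate, measured 23185, 22024 and 22853 in the dishes and 5611, 7620.3 and 7010.3 in the tumors (-1.76, SE 0.14, adjusted p = 7.82e-05). Elovl6, which lengthens palmitate, measured 4615, 3918 and 4029 and 729.8, 1245 and 1006 (-2.10, SE 0.19, adjusted p = 0.000168). The tumors did not overlap the dishes in either gene. Acss2 and Acly, which supply acetyl-CoA from acetate and from citrate, changed by -1.98 and -1.12, Acaca, which makes malonyl-CoA (1442 to 2184 in the dishes and 520 to 626 in the tumors), by -1.68, and Scd1, the paralog of Scd2, by -1.33. Markers of adipocytes, cells rich in these enzymes, summed to 60.05 to 93.8 in the dishes and 452 to 3201 in the tumors, with the highest value in tumor 312. Adipoq and Plin1 had 78 and 67 reads in tumor 312 and at most 1 read in tumors 319 and 321. Tumor 312 was below both other tumors in 18 of the 28 genes, and its median ratio to their mean over all genes was 0.990. Tumor 319 was above both others in 21. It had the lowest macrophage sum (28087) and endothelial sum (5481) of the 3 tumors, and the middle fibroblast sum (748222). The part of other cells in these differences was not tested. Markers of sebaceous glands, skin cells rich in Scd1, summed to 3620.01 to 3685 in the dishes, 3143 to 3553 in the tumors and 4493 to 5853 in Lung. Of these 6 genes, 3 had 0 reads in tumor 312 and 2 in tumors 319 and 321. The list includes Soat1, which is also among the sterol storage genes below. The sum thus does not measure sebaceous cells alone.

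**Figure D2:**
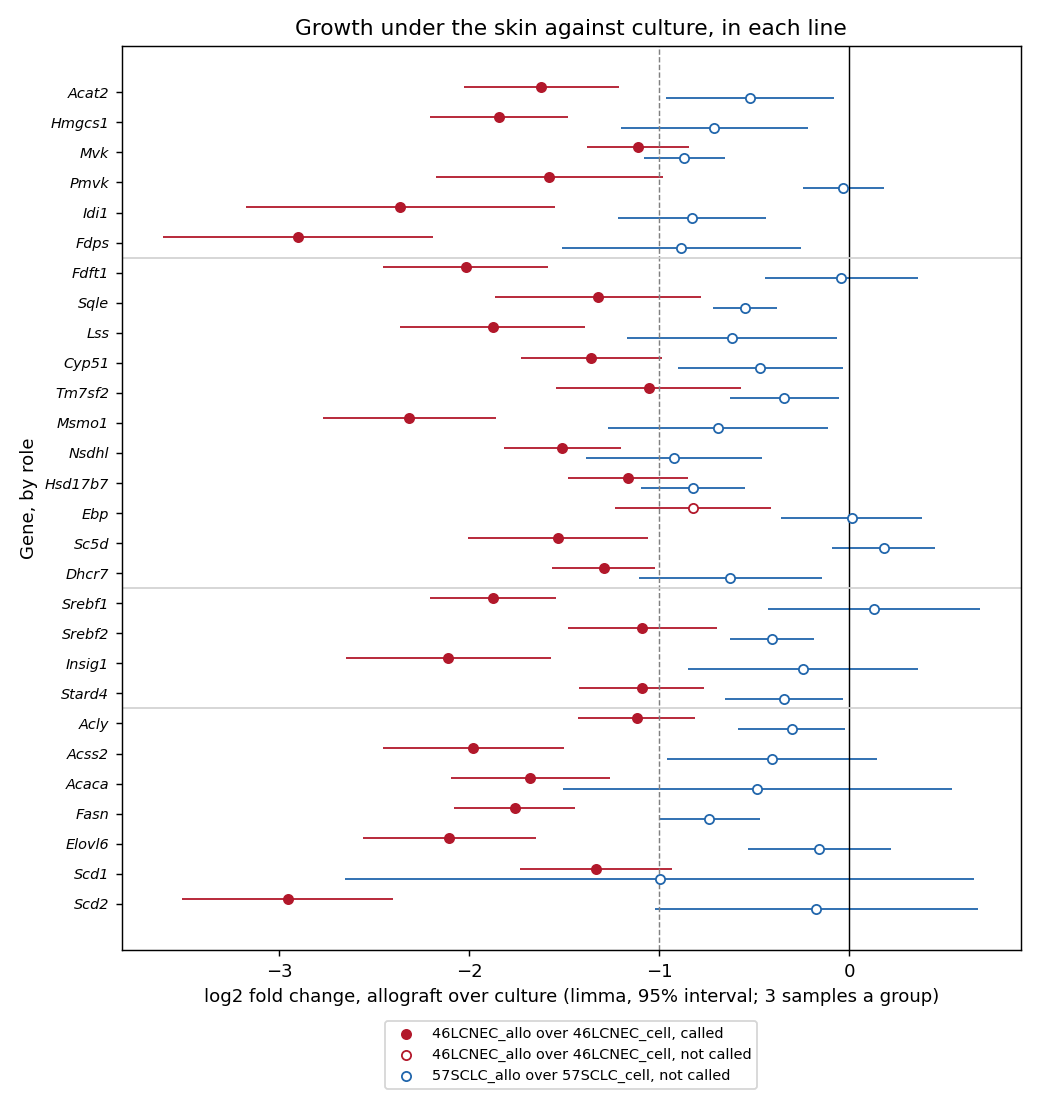
Log2 fold change of allograft over cultured cells for each of 28 genes, with its 95% interval from limma, for the 46LCNEC and the 57SCLC line (3 samples each side). The 46LCNEC points lie between -2.96 and -0.82, and the 57SCLC points between -0.999 and 0.18.

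In the 57SCLC line the median shift was smaller, and no gene was called. No fitted log2 fold change reached 1 in size, although the group mean of Scd1 was 3.08-fold lower in the tumors, with flask C the high sample. By limma 0 of 28 were called, where 2.29% of 17078 genes were called lower and 14.4% higher, and edgeR and DESeq2 also called 0. At an unadjusted p under 0.05, 17 were lower and 0 higher by limma, edgeR and DESeq2 alike, where 21.8% and 27.7% of all genes passed by limma. The median log2 fold change was -0.48, 25 of 28 were below 0 (49.7% of all genes), and 17 had every tumor below every flask (24.1% of all genes). At an adjusted p of at most 0.01 and any size, 6 genes fell, where 7.61% of all genes did. Over all samples left out in turn this count ranged from 3 to 7 and that at an unadjusted p under 0.05 from 10 to 17, with the lowest of both, 3 (2.6% of all genes) and 10, without tumor 317. Host markers rose here too, macrophage markers from 292 to 324 in the flasks to 12116 to 25784 in the tumors, endothelial markers from 35.6 to 44.3 to 2681 to 3732, and fibroblast markers from 23.4 to 28.9 to 38885 to 59879. Their part was not tested.

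The 6 genes with a smaller but tested fall came from the mevalonate, sterol and fatty acid steps. Mvk, mevalonate kinase, measured 839.5, 837 and 852 normalized counts in flasks A, B and C and 491, 460.1 and 435 in tumors 275, 316 and 317 (-0.87, SE 0.09, adjusted p = 0.000146 by limma). Hsd17b7, a sterol keto-reductase, measured 1069, 1067 and 999 and 558, 695 and 529.9 (-0.82, SE 0.12, adjusted p = 0.000853). Fasn measured 9829.8, 9757 and 10929 and 7126, 5507 and 5758 (-0.74, SE 0.12, adjusted p = 0.00134). In these 3 genes the flasks lay close together and every tumor lay below them. Sqle (-0.55, SE 0.07, adjusted p = 0.000507), Idi1 (-0.83, SE 0.17, adjusted p = 0.0053) and Nsdhl (-0.92, SE 0.20, adjusted p = 0.00742) were the others by limma.

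Scd2, the gene with the largest fall in the 46LCNEC line, did not fall beyond the replicate spread in the 57SCLC line. It measured 17971, 17228 and 46492 in the flasks and 27899.7, 18301 and 19643 in the tumors, and its change of -0.17 had a 95% interval from -1.02 to 0.67. Flasks A and B were just under the lowest tumor and flask C was above all 3 tumors. Fdps measured 112, 118 and 216 and 86.2, 73.6 and 70.4 (change -0.88, interval -1.51 to -0.26), a fall that missed the adjusted threshold (adjusted p = 0.0327 by limma). Srebf1 measured 4282, 4295 and 8156 and 6729, 5243 and 5543 (change 0.13, interval -0.43 to 0.68), with the tumors between the flasks. The other changes below 0 were -0.71 for Hmgcs1, -0.69 for Msmo1, -0.63 for Dhcr7, -0.62 for Lss, -0.52 for Acat2, -0.48 for Acaca, -0.47 for Cyp51, -0.41 for Srebf2, -0.41 for Acss2, -0.34 for Stard4, -0.34 for Tm7sf2, -0.30 for Acly, -0.25 for Insig1, -0.16 for Elovl6, -0.04 for Fdft1 and -0.03 for Pmvk. Ebp (0.01) and Sc5d (0.18) were above 0. Scd1, at 531, 493 and 3804 in the flasks and 754, 423 and 390.4 in the tumors, had a change of -0.999 with an SE of 0.72, and flask C was the high sample.

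Flask C of 57SCLC_cell was above flasks A and B in 25 of the 28 genes, with a median ratio of 1.54 to their mean, and 14 genes were over 1.5-fold. Over the 15176 genes measured in all 3 flasks the median ratio was 0.986, and 9.69% were over 1.5-fold. For flasks A and B, each against its own other 2 flasks, 0.67% and 0.61% of these genes were over 1.5-fold. Flask C thus stood apart in genes outside the set as well. The highest ratio in the set was 7.43, for Scd1. In the tumors the same ratio had a median of 1.25 in tumor 319 and 0.782 in tumor 312. Without flask C the median change of the 57SCLC set was -0.26, 20 genes were below 0 and 0 were called. At an unadjusted p under 0.05, 14 were lower and 3 higher, and the share of all genes was not counted for that fit. At an adjusted p of at most 0.01 and any size, 7 were lower, where 12.4% of all genes were. With flask C these were 6 and 7.61%. Without it Scd2 was at 0.29, Acaca at 0.13, Insig1 at 0.10, Srebf1 at 0.44 and Scd1 at -0.03. What set flask C apart was not tested.

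**Figure D3:**
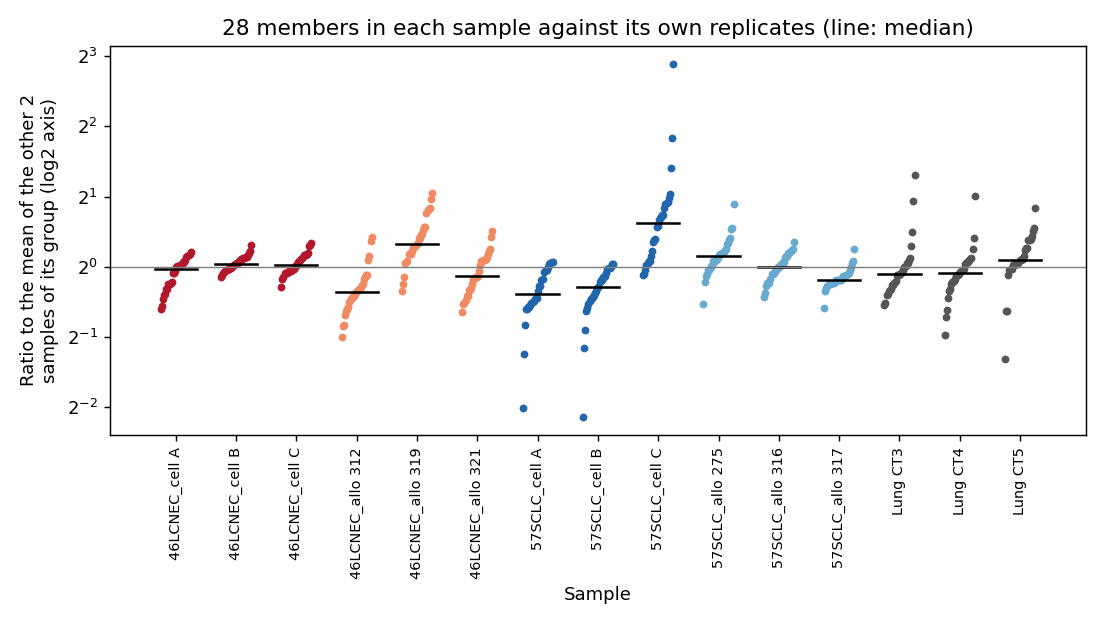
Ratio of each sample to the mean of the other 2 samples of its group for 28 genes, on a log2 axis, by sample. Points of flask C of 57SCLC_cell have a median of 1.54 and reach 7.43, and those of tumor 312 of 46LCNEC_allo have a median of 0.782.

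The difference between the lines in the response to growth under the skin was tested with an interaction term over 12 samples, as the change in 57SCLC minus the change in 46LCNEC. All 28 genes were above 0, with a median of 1.12, where 45.2% of 18440 genes were below 0 and the median of all genes was 0.10. The term was called higher in 12 genes and lower in 0, where 10.8% of all genes were called higher and 6.78% lower. The largest was Scd2 (2.78, SE 0.48, adjusted p = 0.000905 by limma), followed by Fdps (2.02, SE 0.44, adjusted p = 0.00386), Srebf1 (2.00, SE 0.31, adjusted p = 0.000451), Fdft1 (1.98, SE 0.28, adjusted p = 0.00021) and Elovl6 (1.95, SE 0.28, adjusted p = 0.00023). Insig1, Sc5d, Msmo1, Acss2, Pmvk, Hmgcs1 and Fasn were also called, between 1.02 and 1.86. They come from each of the 4 roles. The term was smallest for Mvk (0.24, interval -0.06 to 0.55), Hsd17b7 (0.34, -0.06 to 0.75) and Scd1 (0.34, -1.54 to 2.21). Mvk changed by -1.11 in 46LCNEC and -0.87 in 57SCLC, and Hsd17b7 by -1.16 and -0.82. The count was 16 without flask C, 8 without flask A, 7 without flask B and 16 without tumor 319, and in a test against a 2-fold difference no gene passed.

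In culture the 46LCNEC line held more of these transcripts than the 57SCLC line. The line, the virus that started the tumor and growth as a layer or as aggregates differ together here. The cell passage given by the study differs with them, and these cannot be told apart. Fibroblast markers moved with the line too, at 76105 to 86538 in the dishes and 23.4 to 28.9 in the flasks, with 4 of 4 tested called lower (median log2 fold change -12.22), and 6 of 6 neuroendocrine markers were called higher. Their part in these differences was not tested. Of 28 genes, 16 were called lower in 57SCLC_cell than in 46LCNEC_cell, where 22.2% of 16920 genes were, and 1 was called higher, where 23.9% were. The median log2 fold change was -1.12, and 23 genes had every flask below every dish (40.5% of all genes). Scd1 measured 14519, 13326 and 12339 in the dishes and 531, 493 and 3804 in the flasks (-3.74, SE 0.70, adjusted p = 0.00151 by limma). Scd2 was 5.72-fold lower (-2.68, SE 0.36, adjusted p = 0.000201), and Cyp51, at 9744, 10942 and 11639.6 against 2197, 2083 and 3481, changed by -2.09. In each the highest flask, C, was still below the lowest dish. The further called falls were -2.23 for Fdps, -1.80 for Msmo1, -1.68 for Hsd17b7, -1.49 for Nsdhl, -1.47 for Lss, -1.47 for Ebp, -1.30 for Sc5d, -1.21 for Hmgcs1, -1.19 for Fdft1, -1.16 for Fasn, -1.08 for Srebf1, -1.07 for Stard4 and -1.07 for Insig1.

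Tm7sf2, a sterol reductase of the step after Cyp51, went the other way. It measured 233, 249 and 247 normalized counts in the dishes and 993, 1007 and 1039 in the flasks, 4.17-fold higher (2.06, SE 0.09, adjusted p = 2.21e-07 by limma). It shares 10.8% of its exon length with another gene on the same strand. Acaca had a change of -1.22 that was not called (adjusted p = 0.0427 by limma), with flask C at 1872 against 509 and 536. The rest were -0.99 for Idi1, -0.99 for Elovl6, -0.95 for Mvk, -0.92 for Sqle, -0.82 for Srebf2, -0.79 for Acly, -0.66 for Acat2, -0.03 for Acss2, 0.15 for Dhcr7 and 0.16 for Pmvk, none of them called. With reads scaled by library size alone, the median of all genes moved by 0.24 and 10 genes were called lower, where 18.7% of all genes were. Tm7sf2 was the gene called higher in both scalings.

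Between the tumors of the 2 lines the genes went both ways, from -3.41 to 2.77 on the log2 scale for 57SCLC_allo over 46LCNEC_allo, with a median of -0.05. Called higher were 3 genes, where 16.1% of 17502 genes were, and called lower were 3, where 14.2% were. At an adjusted p of at most 0.01 and any size, 7 were higher and 5 lower, where 20.6% and 19.5% of all genes were. Markers of other cell types were lower in 57SCLC_allo, with 6 of 6 fibroblast (median log2 fold change -3.79), 3 of 5 endothelial and 2 of 6 macrophage markers called lower, and their part was not tested. The higher genes were Tm7sf2, at 96.7, 111 and 147 in tumors 312, 319 and 321 and 962, 708 and 747 in tumors 275, 316 and 317 (2.77, SE 0.22, adjusted p = 9.46e-05 by limma), Pmvk (1.70) and Acss2 (1.54). The lower genes were Scd1, at 6477, 5512 and 4175 and 754, 423 and 390.4, 10.3-fold (-3.41, SE 0.28, adjusted p = 0.000112), Hsd17b7 (-1.34) and Cyp51 (-1.20). Tm7sf2, Scd1, Hsd17b7 and Cyp51 thus differed between the lines in the same direction in culture and in tumors. Scd2, which was 5.72-fold lower in the flasks than in the dishes, differed by 0.10 between the tumors (interval -0.54 to 0.74). With library size scaling, 8 genes were called higher and 2 lower, where 20.2% and 11.1% of all genes were. The median of all genes moved by 0.27 under that scaling.

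**Figure D4:**
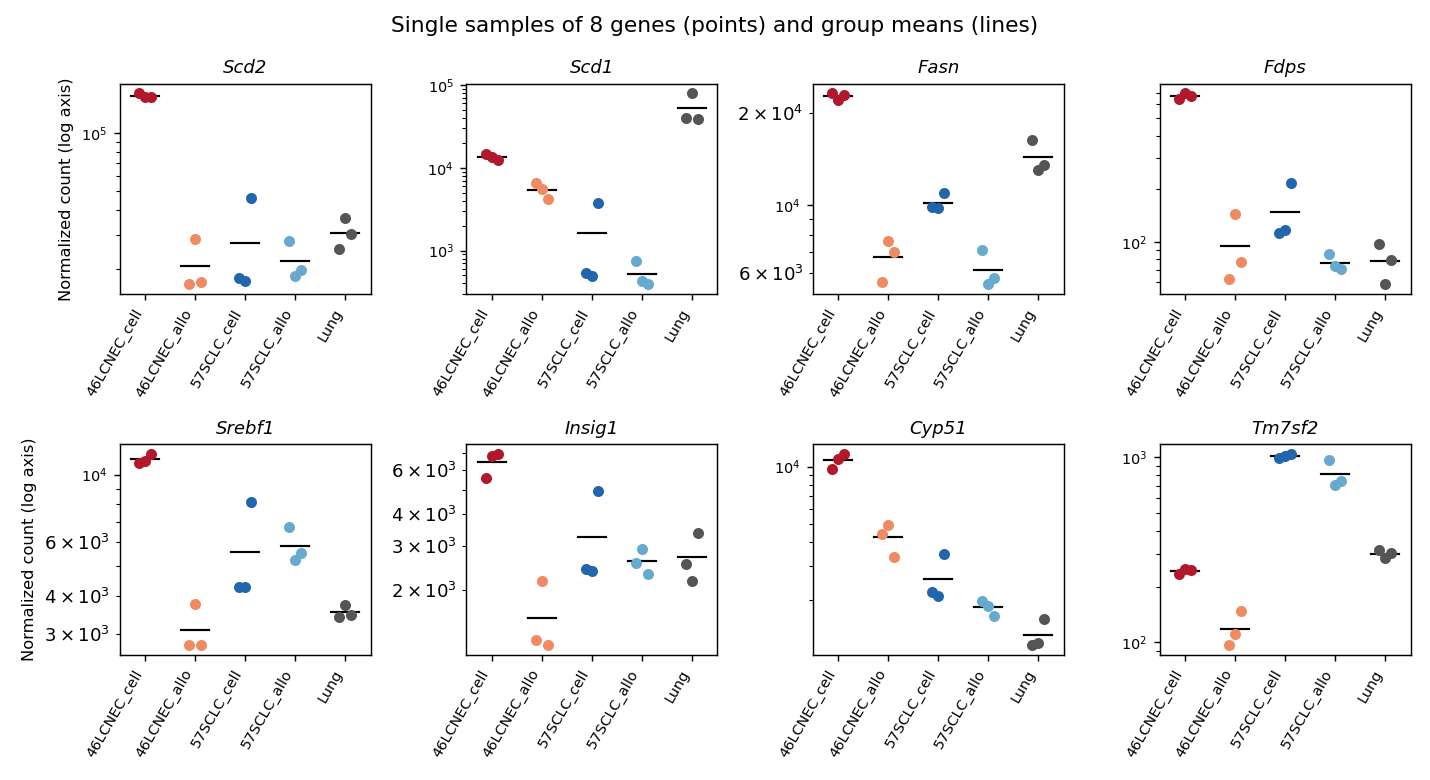
Normalized counts per sample (log axis) of Scd2, Scd1, Fasn, Fdps, Srebf1, Insig1, Cyp51 and Tm7sf2 in 5 groups of 3 samples. Scd2 is at 152723 to 160526 in 46LCNEC_cell and at 16613 to 46492 in the other 4 groups, and Scd1 is highest in Lung, at 38748 to 79757.

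Set against Lung, the 46LCNEC line was high in culture. 46LCNEC_cell was the highest of the 5 groups for 23 of the 28 genes. The 4 comparisons with lung share the same 3 lung samples, so each is given on its own. For 46LCNEC_cell, 17 genes were called higher than in Lung, where 20.6% of 18142 genes were, and 1 was called lower, where 35% were. The largest were 3.16 for Lss, 3.11 for Fdps, 3.05 for Cyp51, 2.90 for Elovl6, 2.72 for Sqle, 2.66 for Hsd17b7, 2.48 for Acaca and 2.36 for Scd2. For 46LCNEC_allo, 3 genes were called higher (1.69 for Cyp51, 1.4998 for Hsd17b7 and 1.399 for Sqle) and 5 lower (-3.24 for Scd1, -2.75 for Acss2, -1.58 for Idi1, -1.36 for Tm7sf2 and -1.09 for Fasn), where 13.4% and 22.1% of 18033 genes were. The median log2 fold change over Lung was 1.37 for the dishes and -0.27 for the tumors of the line.

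For 57SCLC_cell, 7 genes were called higher than in Lung (1.90 for Elovl6, 1.80 for Sqle, 1.75 for Tm7sf2, 1.69 for Lss, 1.13 for Acat2, 1.11 for Dhcr7 and 1.03 for Pmvk) and 1 lower (Scd1), where 21.1% and 32.7% of 18467 genes were. Without flask C, 4 were called higher and 2 lower, where 17.8% and 34.7% of all genes were. The 4 were Elovl6, Sqle, Tm7sf2 and Hsd17b7, the last of them not called with flask C. Lss, Acat2, Dhcr7 and Pmvk lost the call. The 2 lower were Scd1 and Acss2. For 57SCLC_allo, 3 were called higher (1.75 for Elovl6, 1.41 for Tm7sf2 and 1.25 for Sqle) and 4 lower (-6.64 for Scd1, -1.22 for Fasn, -1.21 for Acss2 and -1.04 for Idi1), where 18.9% and 26.9% of 18517 genes were. The medians were 0.45 and -0.02. Sqle, squalene epoxidase, was called higher than in Lung in all 4 groups, at 1458, 1308 and 1489 normalized counts in lungs CT3, CT4 and CT5 against 2842 to 9676 in the 12 other samples.

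Scd1 was called lower than in Lung in all 4 groups. It measured 40467, 79757 and 38748 in the lungs, where CT4 was about as high as the others together, and 3.96-fold, 9.83-fold, 32.9-fold and 101-fold less in 46LCNEC_cell, 46LCNEC_allo, 57SCLC_cell and 57SCLC_allo. The value for 57SCLC_cell rests on flask C, and its log2 fold change over Lung was -5.64 with and -6.61 without that flask, beside -6.64 for 57SCLC_allo. Its paralog Scd2 measured 25218, 36714 and 30183 in the lungs. Per kilobase of exon Scd1 was the more abundant paralog in Lung (7354 against 4079 normalized counts per kilobase), and Scd2 in 46LCNEC_cell (20679 against 1859). Alveolar type II markers summed to 185543 to 246273 in Lung and to 265 to 1596 in the other groups, and adipocyte markers to 613 to 5256 in Lung. The part of either cell type in the lung level was not tested. Reads of near-identical stretches of the paralogs could be shared, and how reads with several alignments were counted is not given in the sources used here.

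Genes around the set moved less uniformly. Their counts are to be read against the shares of all genes, which were 8.45% called lower and 14.4% higher in the 46LCNEC line and 2.29% and 14.4% in the 57SCLC line. At an unadjusted p under 0.05 the shares were 28.9% lower and 30.1% higher in the 46LCNEC line and 21.8% and 27.7% in the 57SCLC line. Of the genes that process and release SREBPs, 0 of 13 were called in the 46LCNEC line (median -0.02) and 0 of 12 in the 57SCLC line (median -0.09) by limma, edgeR and DESeq2. At an unadjusted p under 0.05 by limma, 1 was higher and 1 lower in the former and 2 were higher and 3 lower in the latter. Of 18 other genes of fatty acid synthesis, 5 fell in the 46LCNEC tumors and 0 rose (median -0.71), and DESeq2 called 2 higher. At an unadjusted p under 0.05 by limma, 13 of the 18 were lower and 3 higher. The 5 called included Elovl7, an elongase (-2.99, SE 0.45, adjusted p = 0.00139 by limma), and the polyunsaturated fatty acid desaturases Fads2 (-2.43, SE 0.13, adjusted p = 1.64e-05) and Fads1 (-1.91, SE 0.11, adjusted p = 2.2e-05). In the 57SCLC tumors 1 of 18 fell, Thrsp, a regulator of lipogenesis (-1.71, SE 0.11, adjusted p = 7.74e-06), with a median of -0.14. There 8 of the 18 were lower and 1 higher at an unadjusted p under 0.05 by limma. Of the genes of triglyceride and phospholipid assembly, 2 of 8 fell in the 46LCNEC tumors, Pcyt2 and Chka of the phosphatidylethanolamine and phosphatidylcholine routes. At an unadjusted p under 0.05 by limma, 6 of the 8 were lower and 0 higher. In the 57SCLC tumors 0 of 9 were called, and 4 were lower and 1 higher at an unadjusted p under 0.05. Of the branch from mevalonate to other isoprenoids, 1 of 8 fell in the 46LCNEC tumors, Pdss1 of coenzyme Q synthesis. At an unadjusted p under 0.05 by limma, 4 of the 8 were lower and 1 higher. In the 57SCLC tumors 0 of 8 were called, and 1 was higher and 1 lower at an unadjusted p under 0.05.

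Genes of sterol storage and export, many of them targets of the sterol sensor LXR, included rises. In the 46LCNEC tumors 3 of 12 rose and 1 fell (14.4% and 8.45% of all genes), led by the exporters Abca1 (6.64, SE 0.27, adjusted p = 6.37e-06 by limma) and Abcg1 (3.37, SE 0.25, adjusted p = 6.23e-05). The gene that fell was Lpcat3, a phospholipid remodeling enzyme (-1.46, SE 0.26, adjusted p = 0.00304). In the 57SCLC tumors 4 of 12 rose and 0 fell (14.4% and 2.29% of all genes), among them Abca1 (5.99, SE 0.29, adjusted p = 1.85e-06), Npc2, a lysosomal sterol carrier (2.56, SE 0.19, adjusted p = 1.8e-05), and Lipa, a lysosomal lipase whose mean was 1.60 normalized counts in the flasks and 702 in the tumors. Abca1, Abcg1 and Lipa are also made by macrophages, whose markers rose in both tumors as given above, and the part of these cells was not tested. Of 9 genes of fatty acid oxidation 1 rose in the 46LCNEC tumors, a share near that of all genes, and it was Cpt1a, which admits fatty acids to mitochondria (1.501, SE 0.28, adjusted p = 0.00367 by limma), and 0 of 8 were called in the 57SCLC tumors, where 2 were higher at an unadjusted p under 0.05. Of 10 proliferation genes 2 fell in the 46LCNEC tumors (median -0.72). At an unadjusted p under 0.05 by limma, 7 were lower and 0 higher there, where 28.9% and 30.1% of all genes were. In the 57SCLC tumors 0 of the 10 were called (median -0.49), and 9 were lower at an unadjusted p under 0.05, where 21.8% of all genes were. Each of these counts of 0 in the 57SCLC tumors was 0 by edgeR and DESeq2 as well.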

How the data were processed

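RNA from 15 mouse samples was sequenced after poly-A selection as paired-end reads. Per the labels and the study's methods, alignment was to GRCm39 (Rbowtie2) and counting per gene used featureCounts with the GENCODE M27 genes. The authors divided these counts by DESeq2 size factors, so the deposited values are signal values (normalized counts) and not raw counts. Strand setting and handling of reads with several alignments are not given in the sources used here. In each sample 100% of non-zero values were whole multiples of 1 step within 0.01, which gave back the reads.

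Comparisons across all genes used limma 3.58.1 (R 4.3.3) with a mean-variance trend, on normalized counts to which 1 was added before taking log2, a scale that understates the change of low genes. Each was fitted on its 6 samples, or on 12 for the interaction. Genes needed 10 normalized counts or more in 3 samples or more of the fit. Alternatives were edgeR 4.0.16 and DESeq2 1.42.0 on the recovered reads, other scalings, pseudocounts, filters and thresholds, 1 model of all 15 samples, a test against 2-fold, a replicate block and leaving out each sample. TMM scaling and edgeR without flask C were added after seeing the data. The procedures were tested on simulated data. Replicate letters were checked and do not pair the samples. Exon lengths, coordinates and exon overlaps came from GENCODE release 39. The members and lists were chosen with earlier results of these data known. All members are named, and from each other list at most 3 called genes per allograft comparison, those with the largest changes. Floors of 3 reads cover counting error only. Proteins of the paralogs were not analysed here, and results for some genes of the model are not reported here.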

Additional observations from a re-analysis of the deposited data

Results flagged for a closer look

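For 12 genes the change from culture to growth under the skin differed between the lines by the interaction term of limma over 12 samples (57SCLC change minus 46LCNEC change, on the log2 scale, with Benjamini-Hochberg adjusted p). The values were 2.78, SE 0.48, adjusted p = 0.000905 for Scd2, 2.02, SE 0.44, adjusted p = 0.00386 for Fdps, 2.00, SE 0.31, adjusted p = 0.000451 for Srebf1, 1.98, SE 0.28, adjusted p = 0.00021 for Fdft1, 1.95, SE 0.28, adjusted p = 0.00023 for Elovl6 and 1.86, SE 0.39, adjusted p = 0.00314 for Insig1. They were 1.71, SE 0.25, adjusted p = 0.000277 for Sc5d, 1.62, SE 0.36, adjusted p = 0.00404 for Msmo1, 1.57, SE 0.33, adjusted p = 0.00321 for Acss2, 1.54, SE 0.29, adjusted p = 0.00157 for Pmvk, 1.14, SE 0.29, adjusted p = 0.00994 for Hmgcs1 and 1.02, SE 0.18, adjusted p = 0.000945 for Fasn. Each fell in 46LCNEC, where all 3 tumors lay below all 3 dishes, and none was called in 57SCLC. Without flask C the terms were 3.25 for Scd2, 2.32 for Fdps and 2.31 for Srebf1.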

How the results depend on the processing

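Of the counts of called genes recomputed under the alternatives, 459 stayed within 1.5 times the reported count and 33 did not. No called value of a gene changed sign, and 176 called values of single genes lost and 83 gained a call. The 87 uncalled values that changed sign belonged to 32 results. In the test against a 2-fold change, 9 genes were called lower in 46LCNEC_allo than in its cells, 5 lower and 6 in all in 57SCLC_cell over 46LCNEC_cell, 1 higher and 1 lower (2 in all) in 57SCLC_allo over 46LCNEC_allo, 0 higher and 2 lower in 46LCNEC_allo over Lung, 2 higher and 3 in all in 57SCLC_cell over Lung, 0 higher and 1 lower in 57SCLC_allo over Lung, and 0 in the interaction. That test asks for a larger change by construction. With library size scaling, 11 were called (10 lower) in 57SCLC_cell over 46LCNEC_cell and 10 (8 higher) in 57SCLC_allo over 46LCNEC_allo. Of all genes, 18.7% were called lower in the former and 20.2% higher in the latter under that scaling. The cause was not tested.

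When each sample was left out in turn, the counts ranged from 23 to 27 in 46LCNEC_allo over its cells, from 0 to 1 in 57SCLC_allo over its cells (1 without flask A), from 15 to 20 in 57SCLC_cell over 46LCNEC_cell (14 to 19 lower), from 5 to 9 in 57SCLC_allo over 46LCNEC_allo (2 to 6 higher, 6 without tumor 319), from 5 to 9 in 46LCNEC_allo over Lung (2 to 6 lower), from 6 to 9 in 57SCLC_cell over Lung (4 to 8 higher and 1 to 2 lower, 4 and 2 without flask C) and from 7 to 16 in the interaction. The interaction was called in 11 genes by edgeR, 14 by DESeq2 and 15 at an adjusted p of at most 0.05. With the replicate letters as a replicate block, 57SCLC_cell over 46LCNEC_cell had 18 genes called, 17 lower and 1 higher. The deviations of same-lettered samples correlated at 0.09, -0.08 and -0.01, so the letters do not pair the samples, and the dishes and flasks of a line share no number with its tumors in the labels. The lowest depth, 9480244 reads, limits genes near the floor most, and Mvd could not be assessed.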
